A study of Mus musculus with 18 samples.

Results

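The noncanonical NF-kB genes described here are the 8 mouse genes Nfkb2, Relb, Map3k14, Chuk, Traf2, Traf3, Birc2 and Birc3, listed by name as members of the pathway, with earlier results of these data known. They were found by symbol among the 35275 genes of the deposited table, and all 8 were expressed above the minimum of 1 FPKM that left 11646 genes to test. The sequenced RNA came from pan B cells, B cells not divided into subsets, of C57BL/6 spleens, with no genetic change named in the labels. Before BAFF, a survival cytokine of B cells, the cells spent 1 h with 1000 ng/ml mBaffR-mFc or a control antibody. The labels describe mBaffR-mFc, by its name a fusion of the mouse BAFF receptor with an Fc part, as a reagent that covers the site of BAFF that BR3 (the BAFF receptor) binds. Each pretreatment was followed by 4 h with BAFF 60mer at 100 ng/ml, by 4 h with BAFF 3mer at the same concentration, or by no BAFF. BAFF 60mer is the large assembly of 60 subunits and BAFF 3mer the trimer of 3. The 6 groups, each of 3 libraries, were thus 60mer, 3mer and no BAFF under mBaffR-mFc, and 60mer, 3mer and no BAFF under control antibody. The labels name neither the age of the mice nor how many were used, and they do not say whether the libraries of a group came from separate mice, so the p-values describe the spread among libraries, which may be technical.

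In the noncanonical pathway, receptors of the TNF receptor family such as the BAFF receptor and CD40 control the stability of the kinase NIK, the product of Map3k14. In resting cells TRAF3 bridges NIK to TRAF2 and to the ubiquitin ligases cIAP1 and cIAP2, the products of Birc2 and Birc3, which mark NIK for degradation. Receptor engagement ends this, NIK accumulates and activates IKK alpha, the product of Chuk, and the NF-kB2 precursor p100 is processed to p52, which enters the nucleus with RelB. In B cells the pathway is known for its role in BAFF-dependent survival and maturation. Most of its steps act on proteins, which were not measured here. Nfkb2, Relb and Birc3 are themselves known as targets of NF-kB factors.

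Library totals recovered from the values ran from 12.2 to 25.4 M fragments, which places at least about 1776 fragments on each of the 8 genes in each library. The summed level of 5 B cell markers (Cd79a, Cd79b, Ms4a1, Pax5, Cd22) was 2025 to 2130.0 FPKM in the libraries of both 60mer groups and 2153 to 2349 FPKM in the others, and that of 6 T cell markers was 3.16 to 4.89 FPKM over all libraries. The libraries were also split, largely along BAFF 60mer, by 6 connective tissue markers (Col1a1, Col1a2, Col3a1, Sparc, Dcn, Bgn). Their sum was 8.14 to 12.9 FPKM in 8 libraries, namely all libraries of both 60mer groups and replicates 1 and 2 of 3mer under control antibody. In the other 10 libraries it was 0 to 0.131 FPKM, with 3 of the 6 markers at 0 throughout 3mer under mBaffR-mFc, 5 throughout no BAFF under mBaffR-mFc and 3 throughout no BAFF under control antibody. Markers of dendritic cells (Flt3, Zbtb46, Itgax, Xcr1; none at 0 throughout any group) summed to 17.2 to 22.0 FPKM in the libraries of both 60mer groups, against 12.3 to 14.8 FPKM in the other groups. This rested on Zbtb46, at means of 15.8 FPKM with 60mer and 9.55 FPKM with no BAFF under mBaffR-mFc and 15.9 and 9.99 FPKM under control antibody, while the means of Flt3 and Itgax were lower with 60mer than with no BAFF under both. Markers of plasma cells (Sdc1, Xbp1, Jchain, Prdm1) summed to 128 to 140.5 FPKM and 125 to 135 FPKM with 60mer under mBaffR-mFc and control antibody, against 139.6 to 164 FPKM in the others. Most of this was Sdc1, at means of 21.3 FPKM with 60mer and 35.6 FPKM with no BAFF under mBaffR-mFc and 19.1 and 35.7 FPKM under control antibody, while those of Jchain were 58.9 and 58.2 FPKM, and 60.3 and 61.0 FPKM. Natural killer cell markers summed to 92.5 to 97.6 FPKM with 60mer, 102 to 113 FPKM with 3mer and 91.1 to 109 FPKM with no BAFF under mBaffR-mFc, and to 87.4 to 87.9, 89.9 to 95.1 and 98.3 to 109 FPKM under control antibody. The sums of the remaining lists over all libraries were 133 to 160.4 FPKM for macrophages and monocytes, 15.7 to 29.5 FPKM for neutrophils and 1.26 to 3.12 FPKM for erythroid cells. In bulk RNA, fewer cells of a type and less RNA per cell cannot be told apart.

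At the level of transcripts per length, in FPKM over all 18 libraries, Birc3 was by far the highest of the 8, at 321 to 428 FPKM and above 98.2% of the tested genes on average. Nfkb2 followed at 106 to 174 FPKM, and then Relb at 61.9 to 75.3 FPKM, Birc2 at 62.4 to 75.1 FPKM and Chuk at 55.0 to 64.9 FPKM. Map3k14 lay at 31.3 to 37.5 FPKM, Traf2 at 27.0 to 30.0 FPKM and Traf3 at 23.1 to 30.2 FPKM. The ranges of Relb and Birc2, of Birc2 and Chuk, and of Traf2 and Traf3 overlapped, and the other neighbours in this order did not. The transcript of the ligase cIAP2 thus stood above that of its close relative cIAP1 in every library, while those of the adaptors TRAF2 and TRAF3 were close.

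**Figure D1:**
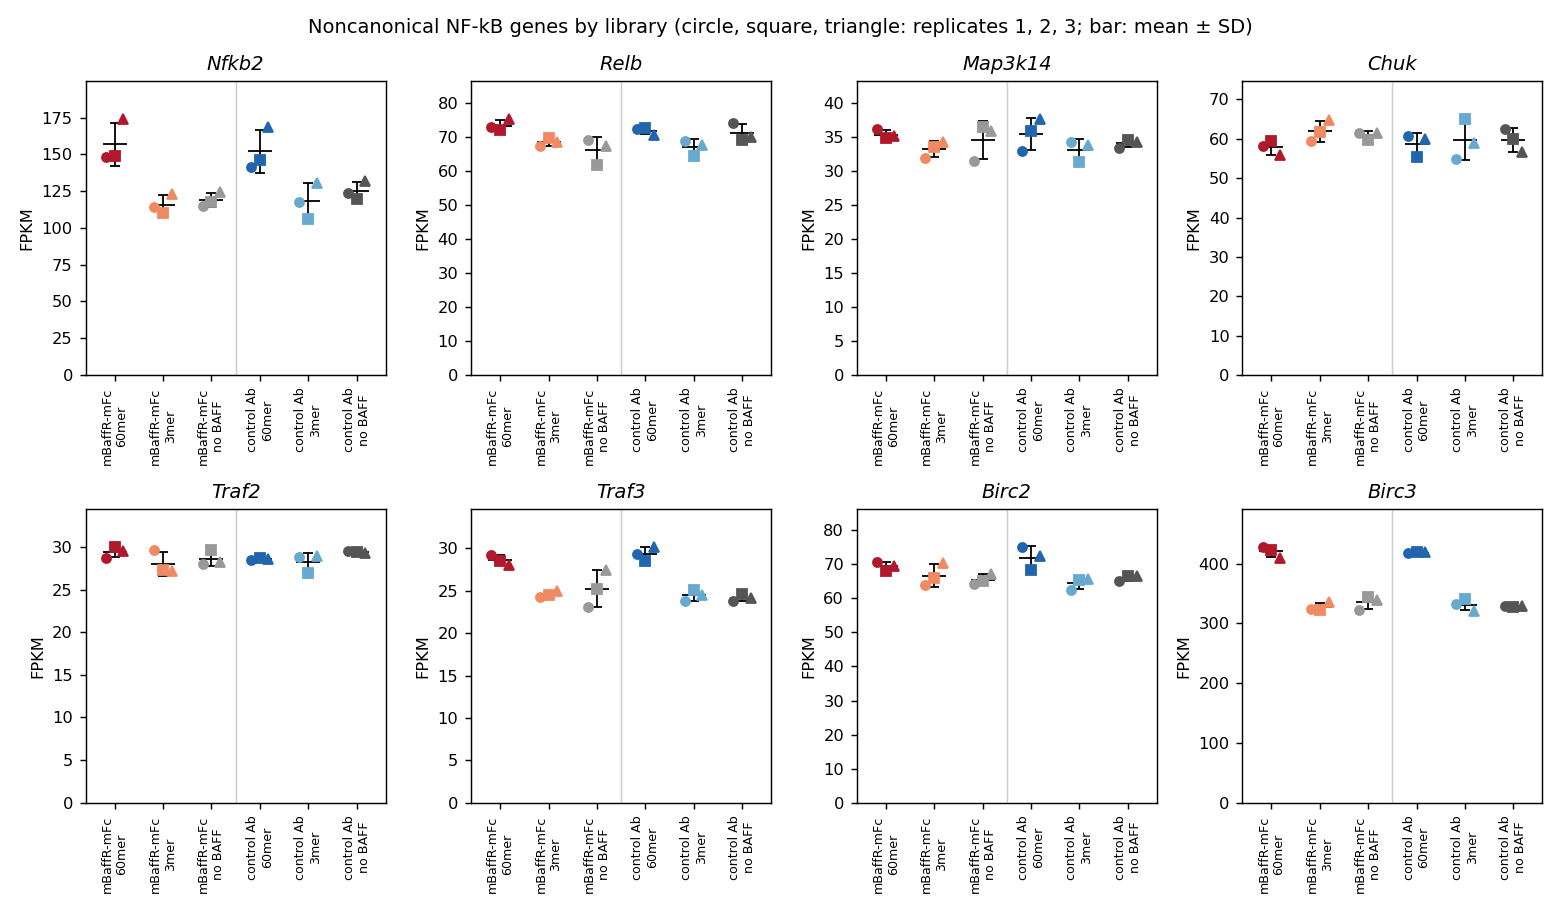
FPKM of the 8 genes in each library (y axes from 0), with 60mer, 3mer and no BAFF from left to right under mBaffR-mFc and then under control antibody; bars are means ± SD of 3 libraries. Birc3, Nfkb2 and Traf3 are higher in the 60mer libraries than in the no BAFF libraries under both pretreatments, whereas Map3k14, Chuk and Traf2 lie close together in all groups.

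The NF-kB subunit genes were examined first. Nfkb2, which encodes p100 and p52, lies on chromosome 19 from 46304320 to 46312385, plus strand, in GENCODE M21 on GRCm38 (the build of the deposited values is not given in the sources used here). Sequences before 2 of its RefSeq starts, which lie within these bounds, are shown because they hold matches to the NF-kB consensus, a pattern of 10 bases searched on both strands. Promoter windows from RefSeq (GRCm38.p6), from 250 bases before to 50 after a transcript start, matched 7 of the 8 genes by symbol, and Relb was not among them. A match was found in 8.46% of all 32851 promoters and in at least one promoter of 12.03% of the 8639 tested genes with a promoter. Among the 7 genes, Nfkb2 and Traf3 had one. In the sequences below, from 5′ to 3′ on the gene's strand, capitals mark the matches; they describe the letters and are not measured binding sites. The Traf3 and Birc3 stretches are set beside them, the first for its match next to the start and the second because Birc3, described below, had no match in its window.
Nfkb2, chr19:46304637-46304736, bases -100 to -1 of the first start: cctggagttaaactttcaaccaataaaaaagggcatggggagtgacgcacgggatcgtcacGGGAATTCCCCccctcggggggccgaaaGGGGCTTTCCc
Nfkb2, chr19:46305680-46305779, bases -250 to -151 of the third start: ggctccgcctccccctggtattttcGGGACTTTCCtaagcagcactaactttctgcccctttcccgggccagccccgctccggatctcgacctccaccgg
Traf3, chr12:111166270-111166369, bases -100 to -1: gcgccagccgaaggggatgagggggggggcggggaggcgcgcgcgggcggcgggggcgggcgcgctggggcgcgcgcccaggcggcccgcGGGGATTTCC
Birc3, chr9:7873171-7873270, minus strand, bases -100 to -1: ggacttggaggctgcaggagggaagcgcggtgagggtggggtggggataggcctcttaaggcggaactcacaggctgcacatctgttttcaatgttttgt
The first Nfkb2 stretch carries 2 blocks in capitals, the first of which holds overlapping matches, and the third start has 1. The match of the third start begins 10 bases after the second start.

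Nfkb2 rose with BAFF 60mer under both pretreatments. Under mBaffR-mFc it stood at 148, 149 and 174 FPKM with 60mer, 114, 109.9 and 123 FPKM with 3mer, and 115, 118 and 124 FPKM with no BAFF. Each 60mer library was above each of the other 6, while the libraries of 3mer and no BAFF overlapped. Under control antibody the values were 141, 146 and 168 FPKM with 60mer, 117, 106 and 131 FPKM with 3mer, and 123, 119.9 and 132 FPKM with no BAFF, and again each 60mer library was above each of the other 6, by a smaller gap. Such separation was common over all tested genes, which bears on each gene below. Libraries of 60mer and no BAFF did not overlap for 20.5% of them under mBaffR-mFc and 32.7% under control antibody. For 60mer and 3mer the shares were 24.2% and 23.9%. On the scale of log2(FPKM + 1), Nfkb2 was higher with 60mer than with no BAFF by 0.39 ± 0.0813 under mBaffR-mFc (SE, n = 3 libraries per group; adjusted p = 0.00962, limma with Benjamini-Hochberg adjustment over all tested genes). That corresponds to 1.31-fold. Under control antibody the difference was 0.28 ± 0.0813 (adjusted p = 0.0336), or 1.21-fold. Against 3mer it was 0.43 under mBaffR-mFc (adjusted p = 0.00476) and 0.36 under control antibody (adjusted p = 0.0158).

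The Nfkb2 calls under control antibody were less firm than those under mBaffR-mFc. Against no BAFF, the adjusted p was 0.0927 or 0.11 without no BAFF replicate 1 or 2, and 0.0554 or 0.118 without 60mer replicate 2 or 3. Against 3mer, it was 0.0513 or 0.0702 without 3mer replicate 1 or 2, and 0.0645 without 60mer replicate 3. Under mBaffR-mFc both calls held without any single library of the groups compared. Nfkb2 was highest in replicate 3 in 6 of 6 groups, which no other of the 8 genes showed (at most 3 groups for any replicate); replicate numbers follow the order of deposition, and the labels do not say whether libraries with the same number belong together. Its exons share 299 bases, 6.52% of their length, with the gene Psd on the opposite strand, which stood at 15.03 to 22.5 FPKM, and 531 bases (11.6%) with the noncoding gene AC114539.1 on the opposite strand. The strand handling of the counting is not stated, so fragments in these bases cannot be assigned to one gene.

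Relb, which encodes the partner of p52 (chromosome 7, 19606217 to 19629438, minus strand), gave smaller differences. Under mBaffR-mFc it stood at 72.9, 72.0 and 75.3 FPKM with 60mer, 67.5, 69.6 and 68.5 FPKM with 3mer, and 69.3, 61.9 and 67.5 FPKM with no BAFF. The 60mer libraries were above all the others, by a small margin. The log2 difference from no BAFF was 0.15 ± 0.0441 (95% interval 0.05 to 0.24; adjusted p = 0.067), just short of the threshold of 0.05, and of 6 fits that left out 1 library it passed only without no BAFF replicate 1 (0.18, adjusted p = 0.032). Without no BAFF replicate 2 it was 0.10 (adjusted p = 0.271). Under control antibody Relb was at 72.5, 72.7 and 70.7 FPKM with 60mer, 69.0, 64.4 and 67.7 FPKM with 3mer, and 74.2, 69.2 and 70.2 FPKM with no BAFF. Here the libraries of 60mer and no BAFF overlapped, and the log2 difference was 0.02 with a 95% interval of -0.08 to 0.11. Whether the Relb difference depended on the pretreatment was tested as an interaction, which did not pass, at 0.13 ± 0.0624 (adjusted p = 0.901). The ratio of Nfkb2 to Relb in FPKM was 2.13 ± 0.153 with 60mer under mBaffR-mFc, against 1.80 ± 0.126 with no BAFF (SD, n = 3 each). Under control antibody it was 2.11 ± 0.234 with 60mer and 1.76 ± 0.11 with no BAFF. In both pretreatments the 60mer libraries lay above the no BAFF libraries in this ratio.

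**Figure D2:**
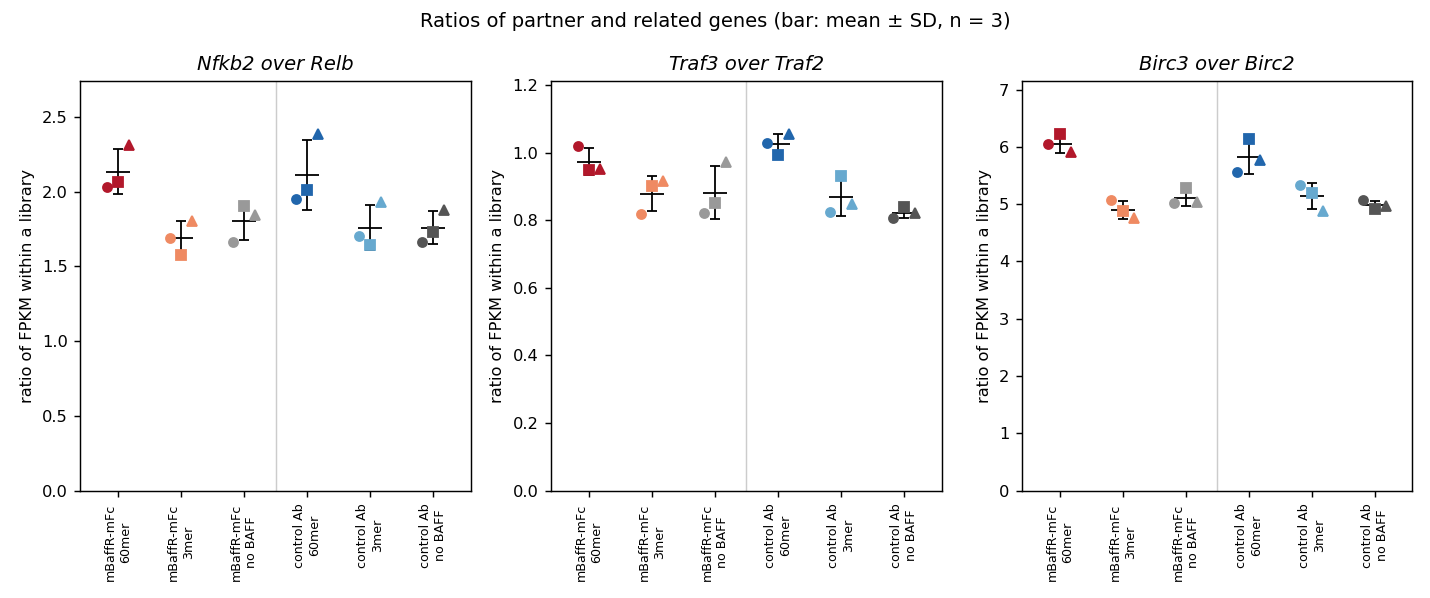
Ratios of FPKM within each library (y axes from 0) for pairs of related genes, with 60mer, 3mer and no BAFF from left to right under mBaffR-mFc and then control antibody; bars are means ± SD of 3 libraries. The mean ratios of Nfkb2 to Relb, of Birc3 to Birc2 and of Traf3 to Traf2 are highest in both 60mer groups. Under mBaffR-mFc the libraries of 60mer and no BAFF overlap in the ratio of Traf3 to Traf2.

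The kinase genes showed no call in any comparison. Map3k14, which encodes NIK (chromosome 11, 103219762 to 103267472, minus strand), averaged 35.3 ± 0.738 FPKM with 60mer, 33.2 ± 1.17 FPKM with 3mer and 34.5 ± 2.78 FPKM with no BAFF under mBaffR-mFc (SD, n = 3 each). Under control antibody it averaged 35.4 ± 2.36, 33.1 ± 1.60 and 34.0 ± 0.576 FPKM in the same order. The log2 difference of 60mer from no BAFF was 0.03 under mBaffR-mFc (95% interval -0.09 to 0.16) and 0.05 under control antibody (-0.07 to 0.18), so a rise of the size seen for Birc3 lay outside both intervals. Of its exon bases, 2.06% are shared with the transcript 1700028N14Rik of the same strand, which averaged 1.38 FPKM.

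Chuk, which encodes IKK alpha (chromosome 19, 44073335 to 44107480, minus strand), averaged 57.8 ± 1.79 FPKM with 60mer, 61.9 ± 2.64 FPKM with 3mer and 60.9 ± 1.09 FPKM with no BAFF under mBaffR-mFc. The 60mer libraries there, at 58.2, 59.3 and 55.8 FPKM, were below the no BAFF libraries at 61.6, 59.7 and 61.5 FPKM. The gap was small beside the spread, with a log2 difference of -0.08 ± 0.057 (adjusted p = 0.523). Under control antibody Chuk averaged 58.7 ± 2.88 FPKM with 60mer and 59.7 ± 2.95 FPKM with no BAFF, and these libraries overlapped.

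In the complex that degrades NIK, the adaptor genes Traf3 and Traf2 parted. Traf3 (chromosome 12, 111166370 to 111267153, plus strand) stood at 29.3, 28.5 and 30.2 FPKM with 60mer under control antibody, 23.8, 25.1 and 24.5 FPKM with 3mer, and 23.8, 24.7 and 24.1 FPKM with no BAFF. The 60mer libraries were well above all the others, which overlapped one another. Under mBaffR-mFc it was at 29.3, 28.5 and 28.1 FPKM with 60mer, 24.3, 24.6 and 24.9 FPKM with 3mer, and 23.1, 25.2 and 27.4 FPKM with no BAFF, so that one no BAFF library came near the 60mer range without entering it. Traf3 rose with 60mer against no BAFF by 0.27 ± 0.0511 under control antibody (adjusted p = 0.00334), or 1.20-fold, and against 3mer by 0.25 (adjusted p = 0.00843). Under mBaffR-mFc the difference from no BAFF was 0.18 ± 0.0511 (adjusted p = 0.0572) and did not pass, passing only without no BAFF replicate 3 (0.24, adjusted p = 0.0154) among 6 fits that left out 1 library, and lying at 0.12 without no BAFF replicate 1 (adjusted p = 0.171). Against 3mer it was 0.21 (adjusted p = 0.0229), a call that was lost in 5 of 6 fits that left out 1 library of these groups, each of them except the fit without 60mer replicate 3. The interaction of pretreatment and 60mer was -0.09 ± 0.0723 (adjusted p = 0.922), so a difference between pretreatments in the response of Traf3 was not detected.

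Traf2 (chromosome 2, 25517982 to 25546940, minus strand) averaged 29.4 ± 0.623 FPKM with 60mer and 28.6 ± 0.844 FPKM with no BAFF under mBaffR-mFc, and these libraries overlapped. Under control antibody it was at 28.5, 28.7 and 28.6 FPKM with 60mer against 29.6, 29.4 and 29.4 FPKM with no BAFF. These did not overlap, yet the log2 difference was only -0.04 (95% interval -0.13 to 0.05; adjusted p = 0.58). The ratio of Traf3 to Traf2 was 1.03 ± 0.0308 with 60mer under control antibody against 0.822 ± 0.0162 with no BAFF, with 0.992 to 1.05 set against 0.806 to 0.839. Under mBaffR-mFc it was 0.973 ± 0.0388 with 60mer and 0.882 ± 0.0788 with no BAFF, where the ranges of 0.95 to 1.02 and 0.823 to 0.971 overlapped.

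Among the ligase genes, Birc3 gave the clearest difference of the 8. It lies beside Birc2 on chromosome 9, minus strand, from 7848699 to 7873186, with Birc2 from 7818227 to 7837064. Birc3 stood at 428, 423 and 409.7 FPKM with 60mer under mBaffR-mFc, 324, 321 and 335 FPKM with 3mer, and 322, 343 and 339 FPKM with no BAFF. Under control antibody it was at 417, 419 and 419 FPKM with 60mer, 333, 340.3 and 321 FPKM with 3mer, and 329.8, 327 and 329.7 FPKM with no BAFF. The lowest 60mer library, at 409.7 FPKM, was above the highest of the others at 343 FPKM, and 3mer and no BAFF overlapped under both pretreatments. Birc3 rose with 60mer against no BAFF by 0.33 ± 0.036 under mBaffR-mFc (adjusted p = 6.47e-05) and by 0.35 ± 0.036 under control antibody (adjusted p = 2.81e-05). These are 1.25-fold and 1.27-fold. Against 3mer the rises were 0.36 (adjusted p = 2.1e-05) and 0.34 (adjusted p = 4.1e-05).

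Birc2 differed in the same direction by less. It was at 75.1, 68.3 and 72.6 FPKM with 60mer under control antibody, 62.4, 65.5 and 65.8 FPKM with 3mer, and 65.1, 66.5 and 66.4 FPKM with no BAFF. The 60mer libraries were above all the others. The log2 difference from no BAFF was 0.12 ± 0.0433 (adjusted p = 0.0693) and that from 3mer 0.15 ± 0.0433 (adjusted p = 0.0515), both just short of the threshold. Without 60mer replicate 2, its lowest 60mer library, both passed (adjusted p = 0.0419 and 0.0332), which neither did in the other 5 fits that left out 1 library (adjusted p up to 0.252 and 0.216, both without 60mer replicate 1). Under mBaffR-mFc Birc2 was at 70.7, 68.1 and 69.4 FPKM with 60mer against 64.3, 65.1 and 67.2 FPKM with no BAFF, and the difference of 0.08 did not pass (adjusted p = 0.328). The ratio of Birc3 to Birc2 was 6.05 ± 0.156 with 60mer under mBaffR-mFc against 5.11 ± 0.143 with no BAFF, and 5.82 ± 0.292 with 60mer under control antibody against 4.98 ± 0.0747 with no BAFF. The annotated transcripts of Birc3 and Birc2 have stretches of 50 bases in common, 1.28% of those of Birc3 and 1.42% of those of Birc2. Birc3 held about 25509 to 43982 fragments per library and Birc2 about 4200 to 7822. Fragments credited to the wrong gene would thus weigh more on Birc2. Their part in the smaller Birc2 differences was not tested.

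**Figure D3:**
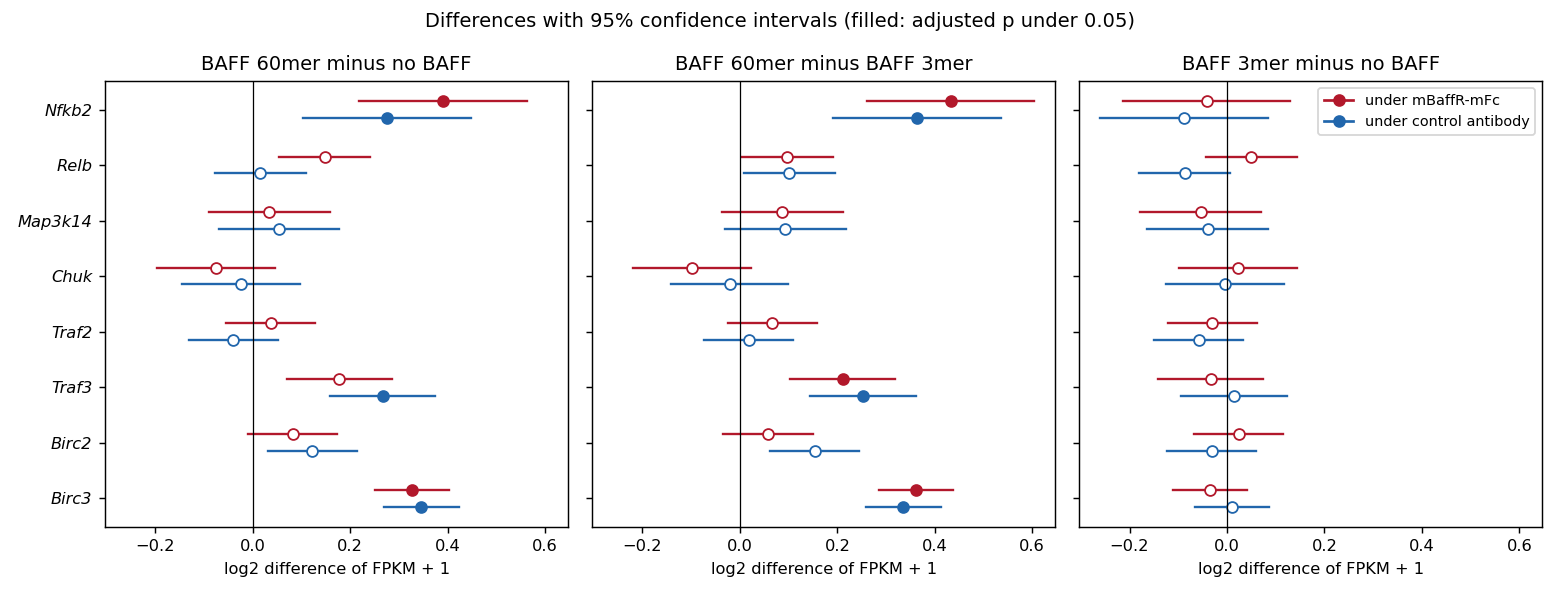
Differences in log2(FPKM + 1) of each gene with 95% confidence intervals, for 60mer minus no BAFF, 60mer minus 3mer and 3mer minus no BAFF under mBaffR-mFc (red) and control antibody (blue); filled points have an adjusted p under 0.05. Filled points occur only in comparisons of 60mer with no BAFF or 3mer, and belong to Birc3, Nfkb2 and Traf3.

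Counted together, 2 of the 8 genes rose with 60mer against no BAFF under mBaffR-mFc and none fell, where 4.83% of all tested genes passed in either direction, 1.46% rising and 3.37% falling. Under control antibody 3 of 8 rose, where 14% passed in either direction, 5.04% rising and 8.94% falling. Against 3mer, 3 of 8 rose under mBaffR-mFc (5.16% of all genes in either direction, 2.05% higher and 3.11% lower) and 3 of 8 under control antibody (4.81% in either direction, 1.80% higher and 3.01% lower). The median log2 difference of the 8 genes from no BAFF was 0.11 under mBaffR-mFc and 0.09 under control antibody, against -0.02 over all tested genes in both. These comparisons share libraries, so their counts are not independent of one another. In the F test over all 6 groups, Birc3 (adjusted p = 2.24e-06), Nfkb2 (adjusted p = 0.00315) and Traf3 (adjusted p = 0.00366) passed, where 8.93% of all genes did.

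**Figure D4:**
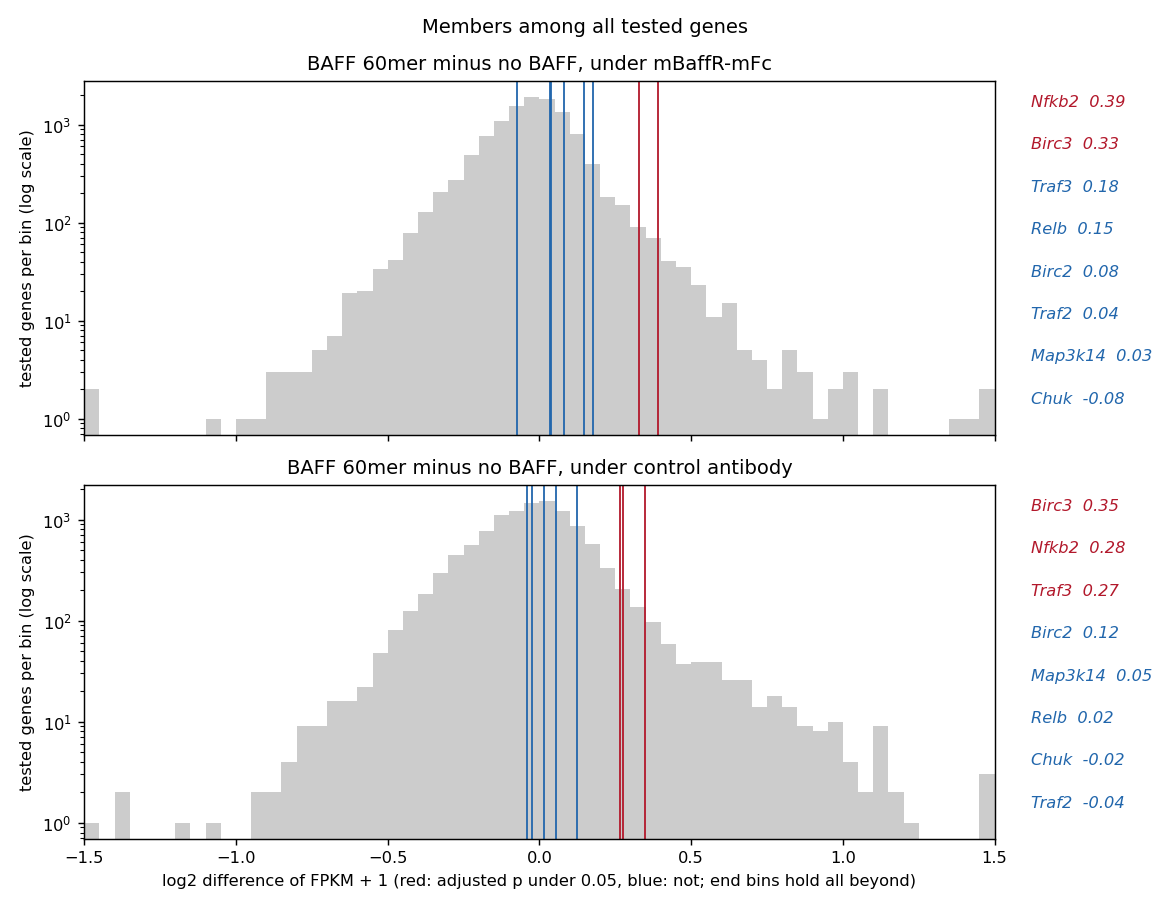
Number of tested genes (y axis, log scale) by log2 difference of 60mer from no BAFF (x axis), under mBaffR-mFc above and control antibody below, with the 8 genes as vertical lines. Nfkb2 at 0.39 and Birc3 at 0.33 lie in the upper tail above, and Birc3, Nfkb2 and Traf3 at 0.35, 0.28 and 0.27 below, while the lines of Map3k14, Chuk and Traf2 stand in the bulk of the genes.

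No difference between the pretreatments was called among the 8 genes, which does not show that their responses were equal. The BAFF comparisons were then also averaged over the pretreatments, a choice made after seeing the data. Against no BAFF, Nfkb2 (0.33 ± 0.0575, adjusted p = 0.000704), Traf3 (0.22 ± 0.0361, adjusted p = 0.000427), Birc2 (0.10 ± 0.0306, adjusted p = 0.0249) and Birc3 (0.34 ± 0.0255, adjusted p = 2.98e-07) rose with 60mer. These are 4 of 8 genes, where 22.1% of all genes passed in either direction, 7.89% rising and 14.3% falling. Relb was at 0.08 (95% interval 0.02 to 0.15; adjusted p = 0.0702). Against 3mer, 5 of 8 rose, Relb being the fifth at 0.10 (adjusted p = 0.0409), where 14.5% of all genes passed, 5.90% rising and 8.60% falling. Against no BAFF, Birc2 lost its call without no BAFF replicate 1 or 60mer replicate 1 under control antibody or 60mer replicate 1 under mBaffR-mFc (adjusted p = 0.0537, 0.0689 and 0.0575). Against 3mer, Relb kept its call only without 3mer replicate 1 or 60mer replicate 3 under control antibody and lost it in the other 10 of 12 fits that left out 1 library (adjusted p up to 0.0943). Birc2 lost its call against 3mer in 6 of 12, namely without 3mer replicate 1 or 60mer replicate 1 or 3 under control antibody and without 3mer replicate 1 or 2 or 60mer replicate 1 under mBaffR-mFc (adjusted p up to 0.0749). With a term for carrying the connective tissue markers, Traf3, Relb and Birc2 no longer passed against 3mer (adjusted p = 0.114, 0.461 and 0.336), at differences of 0.23, 0.11 and 0.13. This term rests on 3mer under control antibody, the only group with libraries that carried the markers and a library that did not. Map3k14, Chuk and Traf2 did not pass in either averaged comparison.

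BAFF 3mer gave no call among the 8 genes. Under mBaffR-mFc the log2 differences of 3mer from no BAFF ran from -0.05 for Map3k14 to 0.05 for Relb, and under control antibody from -0.09 for Nfkb2 to 0.01 for Traf3. No gene of all 11646 passed in either comparison (0.00% called; limma, with 388 and 632 genes at an unadjusted p under 0.05, none of them among the 8). Averaged over pretreatments, the 95% interval for 3mer was -0.07 to 0.04 for Birc3 and -0.19 to 0.06 for Nfkb2, below the rises of the same genes with 60mer. For Traf3 it was -0.09 to 0.07.

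The pretreatment itself gave no call among the 8 genes either. Between mBaffR-mFc and control antibody, the log2 differences with 60mer ran from -0.05 for Birc2 to 0.04 for Nfkb2, where 0.0258% of all genes passed. With 3mer they ran from -0.02 for Nfkb2 to 0.06 for Chuk. With no BAFF the widest was that of Relb, at 66.2 ± 3.83 FPKM under mBaffR-mFc against 71.2 ± 2.64 FPKM under control antibody, a log2 difference of -0.10 with an adjusted p of 0.831. In the last 2 comparisons no gene passed (limma, with 452 and 688 genes at an unadjusted p under 0.05). The interactions asked whether mBaffR-mFc altered the response to BAFF. For 60mer against no BAFF they were 0.12 for Nfkb2 (95% interval -0.13 to 0.36), -0.02 for Birc3 (-0.13 to 0.09) and -0.09 for Traf3 (-0.24 to 0.06). None of the 8 passed in any of the 3 interactions, where 0.00859%, 0.0172% and 0.00% of all genes did. For Nfkb2, changes in the response within these bounds remain compatible with the data.

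All comparisons of 60mer with no BAFF, and of 60mer with 3mer under mBaffR-mFc, lay wholly across the split in connective tissue transcripts, so that the split and the BAFF form cannot be told apart there. The exception among the comparisons was 60mer against 3mer replicates 1 and 2 under control antibody, all of which carried these transcripts. Among these libraries Nfkb2 was higher with 60mer by 0.44 ± 0.0833 (adjusted p = 0.0104), Traf3 by 0.25 ± 0.0591 (adjusted p = 0.0345) and Birc3 by 0.31 ± 0.0402 (adjusted p = 0.000534). With all 3 libraries of 3mer, the same differences were 0.36, 0.25 and 0.34. Leaving out replicate 3 of 3mer set 3 libraries against 2, with the residual variance taken from all groups. For Nfkb2 that replicate was the highest of its group, at 131 FPKM. Replicate 3 of 60mer, the highest of its own group at 168 FPKM, was kept. The B cell marker sum, the levels of Zbtb46 and Sdc1 and, under control antibody, the natural killer cell marker sum also differed between libraries with 60mer and the others, and their part in these results was not tested.

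For each of the 3 genes that passed the F test, the genes outside the 8 whose log2 values followed it most closely over the 18 libraries were named, as a description; the libraries share groups, depth and the split above. Nfkb2 was followed by Grap, an adaptor protein gene (Pearson r = 0.955), Inf2, a formin gene (0.952), and Pim2, a survival kinase gene (0.949). Traf3 was followed by Il9r, the interleukin 9 receptor gene (0.939), Lpcat1, a lysophospholipid acyltransferase gene (0.933), and Pou2af1, a B cell coactivator gene (0.932). Birc3 was followed by Kynu, which encodes kynureninase (0.991), Rapgef1, an exchange factor gene (0.968), and Abcc1, a transporter gene (0.967). Having been picked for following genes that were higher with 60mer, the 9 were so too, by log2 differences from no BAFF of 0.27 to 0.94.

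Further genes of NF-kB signalling were read from lists that were chosen with earlier results of these data known. Of 8 canonical subunits, kinases and inhibitors, 2 rose with 60mer under each pretreatment, none fell and 6 did not pass, where 1.46% of all tested genes rose under mBaffR-mFc and 5.04% under control antibody. Both were genes of inhibitory IkB proteins. Nfkbia, the gene of IkB alpha, stood at 187, 189 and 184 FPKM with 60mer under mBaffR-mFc against 152, 143 and 132 FPKM with no BAFF, a rise of 0.39 (adjusted p = 0.00105), and rose by 0.30 under control antibody (adjusted p = 0.00368). Nfkbie, the gene of IkB epsilon, rose by 0.37 (adjusted p = 6.47e-05) and 0.36 (adjusted p = 5.13e-05). The subunit genes Nfkb1 (0.05 and 0.09), Rela (0.06 and -0.04) and Rel (0.24 and 0.29) did not pass, the values of Rel having an SE of 0.105.

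Of 7 receptor genes that feed the noncanonical pathway, 6 were tested, of which 1 rose and 2 fell under mBaffR-mFc and 1 rose and 1 fell under control antibody (4.83% and 14% of all tested genes passed in either direction). Cd40 rose under both pretreatments, at 79.4, 74.4 and 82.9 FPKM with 60mer under mBaffR-mFc against 59.0, 63.1 and 62.7 FPKM with no BAFF, by 0.35 (adjusted p = 0.00287), and by 0.41 under control antibody (adjusted p = 0.000455). Tnfrsf13b, which encodes the BAFF and APRIL receptor TACI, fell by 0.21 under mBaffR-mFc (adjusted p = 0.00735) and by 0.20 under control antibody (adjusted p = 0.00524). Tnfrsf13c, which encodes BR3, fell by 0.15 under mBaffR-mFc, at 91.8, 99.6 and 93.0 FPKM with 60mer against 106.9, 102 and 106 FPKM with no BAFF (adjusted p = 0.038). Under control antibody its log2 difference was -0.07 (adjusted p = 0.248). The remaining 3 receptors did not pass.

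Of 12 other regulators of NIK and p100 turnover, 1 rose and 1 fell under mBaffR-mFc, and 2 rose and 1 fell under control antibody, where 4.83% and 14% of all tested genes passed in either direction. Traf1, which encodes a TRAF that joins TRAF2 and cIAP proteins, rose by 0.28 (adjusted p = 0.0061) and 0.36 (adjusted p = 0.000502). Traf5 fell by 0.41 under mBaffR-mFc (adjusted p = 0.00464), at 25.1, 24.9 and 24.6 FPKM with 60mer against 30.2, 35.0 and 35.0 FPKM with no BAFF, and by 0.29 under control antibody (adjusted p = 0.0188). Xiap, a relative of the cIAP genes, rose under control antibody by 0.18 (adjusted p = 0.0213) and was at 0.05 under mBaffR-mFc (adjusted p = 0.653). Under control antibody the TRAF genes thus went different ways, with Traf1 and Traf3 higher, Traf5 lower and Traf2 without a call.

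Of 9 genes listed as textbook targets of RelB and p52, 4 were expressed above the minimum, and 3 of these rose under both pretreatments. Among all tested genes, 1.46% rose under mBaffR-mFc and 5.04% under control antibody. The others listed, Cxcl12, Cxcl13, Ccl19, Ccl21a and Tnfsf11, were below the minimum. The list was chosen with earlier results of these data known, and binding of RelB or p52 was not measured. Fcer2a, the gene of the follicular B cell marker CD23, stood at 226, 242 and 237 FPKM with 60mer under mBaffR-mFc against 167, 162 and 165 FPKM with no BAFF, a rise of 0.51 (adjusted p = 1.92e-06), and rose by 0.35 under control antibody (adjusted p = 5.26e-05). Cr2, the gene of complement receptor CD21, rose by 0.29 (adjusted p = 0.00119) and 0.21 (adjusted p = 0.00636). Bcl2l1, the gene of the survival protein BCL-XL, rose by 0.33 (adjusted p = 0.0161) and 0.53 (adjusted p = 0.000348). Icosl was at -0.07 and 0.04 and did not pass. Against 3mer, the same 3 targets passed under mBaffR-mFc, and Fcer2a and Bcl2l1 did under control antibody, where Cr2 was at 0.14 (adjusted p = 0.0891). No gene of the 4 lists passed in a comparison of 3mer with no BAFF or of the pretreatments.

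**Figure D5:**
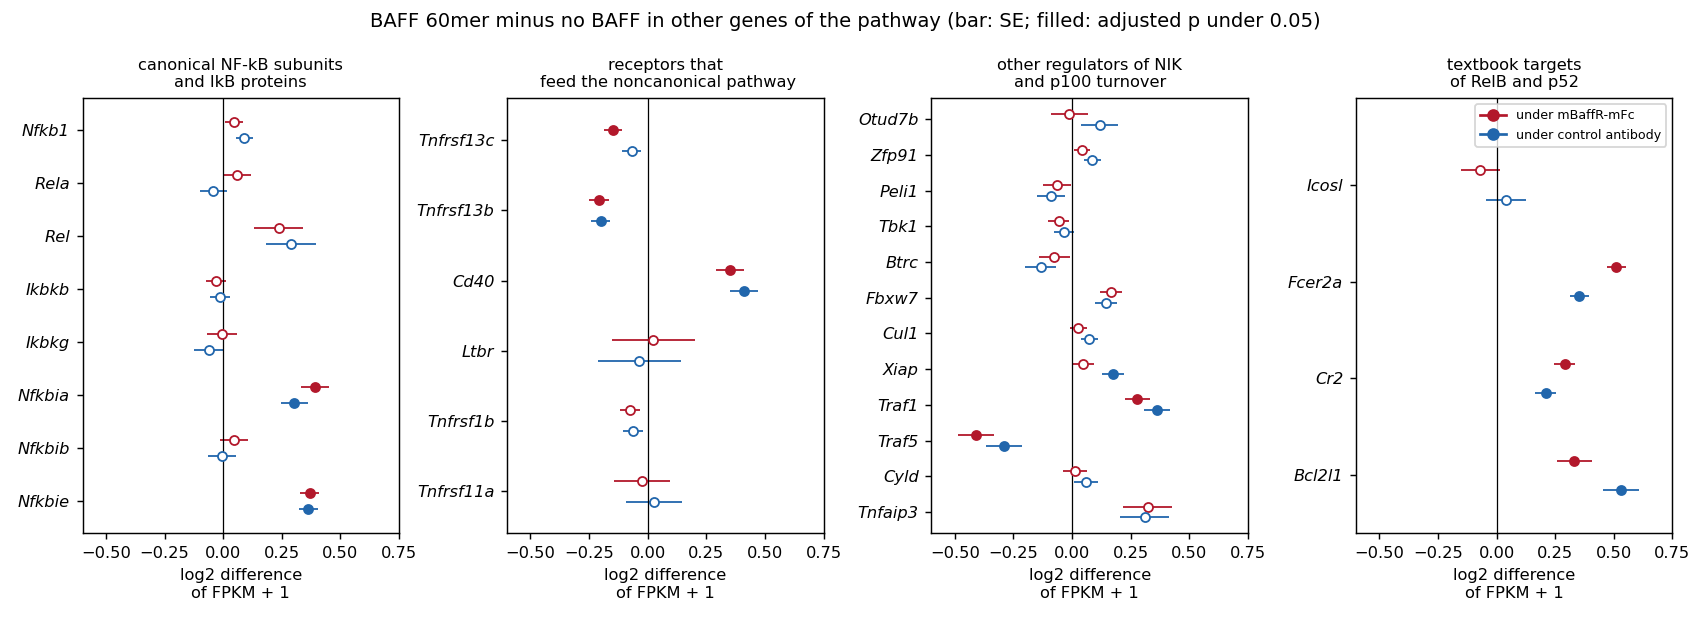
Differences in log2(FPKM + 1) of 60mer from no BAFF with their SE for the tested genes of the 4 lists, under mBaffR-mFc (red) and control antibody (blue); filled points have an adjusted p under 0.05. Nfkbia, Nfkbie, Cd40, Traf1, Fcer2a, Cr2 and Bcl2l1 are filled to the right of 0 under both pretreatments, and Tnfrsf13b and Traf5 to the left.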

How the data were processed

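RNA of 18 libraries in 6 groups of 3 was analysed. The authors deposited FPKM, fragment counts scaled by gene length and library total, which a sequencing company determined, per the labels' protocols; aligner, counter, build, strand handling and scaling are not given in the sources used here. Of 35275 Ensembl IDs, 34490 matched a symbol in GENCODE M21 (GRCm38).

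FPKM were taken as log2(FPKM + 1), so differences of low genes are understated. Testing used limma 3.58.1 (R 4.3.3) on the 11646 genes averaging 1 FPKM or more across libraries (moderated test, variance trend, 12 residual degrees of freedom), with Benjamini-Hochberg adjustment over all of them and a threshold of 0.05. There were 9 comparisons of 2 groups, 3 interactions and an F test. Groups came from the treatment labels; replicates were numbered in accession order. The steps were tested on simulated data.

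Totals were recovered from FPKM steps of 14953 genes with a single transcript, whose lengths come from GENCODE; 91.5% to 93.1% of their low values, up to 20 fragments, were whole to within 0.1. These totals and the fragments per gene are approximate and cover counting error only.

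The members and lists were chosen with earlier results of these data known. A marker gene of the B cell list is not reported here. All members are named; context genes come from the 4 lists, and likeness names the 3 genes with the highest r. Alternatives were a pseudocount of 0.1, no filter, median-of-ratios rescaling, library quality weights, a higher filter (mean of 5 FPKM), a fit of the compared groups only, connective tissue transcripts (summed above 1 FPKM) as a term, and leaving out each library. Plots used matplotlib 3.10.9 (Python 3.11.15).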

Additional observations from a re-analysis of the deposited data

How the results depend on the processing

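None of the called differences of the 8 genes changed direction under the alternatives run. Of the counts of called genes among the 8, 2 with 60mer against no BAFF under mBaffR-mFc became 4 with median-of-ratios rescaling and 4 with library quality weights, Relb and Traf3 being added. With the connective tissue term, the 5 of 60mer against 3mer averaged over pretreatments became 2 (Nfkb2 and Birc3). The differences of the other 3 stayed about as large while their SE grew: Traf3 was at 0.23 ± 0.0648, Relb at 0.11 ± 0.0557 and Birc2 at 0.13 ± 0.0543. Nfkb2 moved from 0.40 to 0.55 and Birc3 from 0.35 to 0.30. Only 3mer under control antibody held libraries of both kinds. The term therefore rests on replicate 3 of that group against its replicates 1 and 2. The 3 of the F test became 1 with the same term; the cause was not tested. That term was not run for 60mer against no BAFF, alone, averaged or as an interaction, nor for 60mer against 3mer under mBaffR-mFc. There the split separates all the groups compared. The averaged comparison of 60mer with 3mer and the F test also hold groups that the split separates. Leaving out 1 library gave 2 to 3 called genes with 60mer against no BAFF under each pretreatment and against 3mer under mBaffR-mFc, 2 to 4 against 3mer under control antibody, 3 to 5 and 3 to 4 in the averaged comparisons with no BAFF and 3mer, 3 in the F test, and 0 elsewhere. Traf3 with 60mer against 3mer under mBaffR-mFc had adjusted p from 0.0618 to 0.0795 in the 5 fits that lost it. Nfkb2 with 60mer against no BAFF under control antibody was also lost with no filter (adjusted p = 0.0752), and against 3mer with only the groups compared (adjusted p = 0.0766). Birc3 was called in every fit of its 4 comparisons of 60mer with 1 library left out. Counts over all genes moved more: the 563 called with 60mer against no BAFF under mBaffR-mFc ranged from 139 to 1386 over the alternatives, the 1628 under control antibody from 756 to 1974, the 601 against 3mer under mBaffR-mFc from 233 to 1318 and the 560 under control antibody from 246 to 708. The 1689 of 60mer against 3mer averaged over pretreatments ranged from 124 to 2404. Those of the F test, 1040, ranged from 50 to 1942. Losses of calls were thus not particular to the 8 genes. No paired analysis was possible because the labels give no replicate numbers, litters or batches, and numbers given in the order of deposition are not used to pair libraries; whether libraries are linked across groups is unknown.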
